A study of Mus musculus with 6 samples.

Results

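The cytosolic ribosomal protein genes are the genes for the protein parts of the ribosome that works outside mitochondria. They were chosen by symbol: Rpl or Rps followed by a number, with at most a short suffix, plus Rplp0, Rplp1, Rplp2 and Rpsa, with at least 10 counts summed over all libraries. Of the 24982 genes in the tables, 85 carried such a symbol and 80 reached the count minimum, 47 of the large subunit and 33 of the small subunit. Of these, 78 (46 large, 32 small) were among the 12949 genes with enough counts to be tested. The rule used symbols and total counts, not the difference between diets, but it was set with earlier results of these data known. Just inside the minimum were Rpl3l with 14 counts in all and Rps27 with 51, which were not tested. Under it were Rpl30 (6), Rpl32l (4), Rpl39l (3), Rpl10l (1) and Rpl26 (0).

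Polyadenylated RNA was sequenced from livers of male mice of the inbred strain C57BL/6NJ. One group of 3 samples came from mice on chow, and the other group of 3 from mice on high fat food plus sugar water (HFHS), both for 54 weeks. No age is given and no genotype other than the strain. The labels do not say that each sample is a separate animal, so the p-values below measure the spread between these samples, which may be technical.

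A cytosolic ribosome joins a small subunit, which reads the messenger RNA, to a large subunit, which forms the peptide bond, and almost every ribosomal protein is present in one copy per ribosome. The messages for these proteins are abundant in most cells, including the hepatocyte with its heavy export of plasma proteins. Many of them begin with a C and a run of pyrimidines, the TOP element (5′ terminal oligopyrimidine tract), through which the kinase complex mTORC1 and the protein LARP1 control their translation. Control of that kind acts on translation, which RNA levels do not measure.

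The start sites are shown because the TOP element is the feature that ribosomal protein messages are best known to share. RefSeq (assembly GRCm38.p6) gave a start window for 60 of the 80 genes. A TOP was scored on the transcribed strand only, as a C at the annotated first base followed directly by at least 4 bases that are C or T. By this rule 13 of the 60 genes (21.7%) held a TOP at an annotated start, against 813 of 27025 genes in the whole promoter table (3.01%). The score depends on the annotated base: a start placed a few bases away gives no match, and no match says nothing about control of the gene. Each sequence below runs from 15 bases before the start through the first 15 transcribed bases, with the TOP in capitals. The first 4 belong to genes whose values are given below, the next 3 have TOP runs of 8 bases or more, and Rps27 is the gene with a TOP that had too few counts to be tested.
Rps6, chr4:86857353-86857382, minus strand: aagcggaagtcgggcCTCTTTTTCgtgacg
Rps15a, chr7:118116133-118116162, minus strand: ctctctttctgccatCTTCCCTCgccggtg
Rps21, chr2:180257364-180257393, plus strand: taccgaggacccgccCTCCTgcccaatagt
Rplp2, chr7:141447636-141447665, plus strand: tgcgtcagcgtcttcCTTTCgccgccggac
Rpl28, chr7:4792950-4792979, plus strand: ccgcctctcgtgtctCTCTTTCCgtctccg
Rpl15, chr14:18270972-18271001, minus strand: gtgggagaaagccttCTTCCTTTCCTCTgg
Rpl35, chr2:39005117-39005146, minus strand: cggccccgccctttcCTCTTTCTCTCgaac
Rps27, chr3:90213634-90213663, minus strand: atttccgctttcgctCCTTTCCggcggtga
For comparison, the windows of the paralogue Rpl22l1, of Rpl41 and of the first annotated start of Rps27l held no TOP under this rule.
Rpl22l1, chr3:28805493-28805522, plus strand: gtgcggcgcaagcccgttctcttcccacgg
Rpl41, chr10:128549154-128549183, minus strand: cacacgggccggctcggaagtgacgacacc
Rps27l, chr9:66946071-66946100, plus strand: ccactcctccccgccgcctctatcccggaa

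Libraries held 16565335 to 20585366 counts in genes. Marker genes of liver cell types were summed per library as CPM, the counts of a gene relative to the total of its library after TMM scaling, a correction for differences in library composition. A gene is called higher or lower where the edgeR test described below gave an adjusted p under 0.05. All markers in the tables had counts. Hepatocyte markers (9 measured, 2 called lower) summed to between 98127 and 121340 CPM in chow, and to 93143, 38048 and 72951 CPM in HFHS replicates 1, 2 and 3. All 9 had a log2 fold change (HFHS over chow) below 0, and 5 passed at an unadjusted edgeR p of 0.05. DESeq2 called 5 of these markers lower and limma-voom 1. Macrophage markers (9 of 9 called higher) summed to 247 to 342 CPM in chow and to 856, 1477 and 754 CPM in HFHS. Stellate cell and fibroblast markers (9 of 10 called higher) summed to 192 to 252 CPM in chow and to 610, 1127 and 553 CPM in HFHS. HFHS replicate 2 had the lowest hepatocyte sum and the highest macrophage, stellate and bile duct sums (for bile duct 287 CPM, against 23.8 to 43.7 CPM in chow, with 5 of 6 markers called higher). Lymphocyte markers summed to 8.35 to 14.7 CPM in chow and to 12.1, 25.7 and 11.5 CPM in HFHS, and 1 of 9 tested was called higher. Endothelial markers (5 of 7 called higher) summed to 186 to 223 CPM in chow and to 318, 287 and 351 CPM in HFHS, and proliferation markers (7 of 8) to 10.9 to 16.6 CPM and to 41.4, 41.5 and 37.5 CPM. Neutrophil markers summed to 2.29 to 7.61 CPM in chow and to 11.0, 36.2 and 10.2 CPM in HFHS, with 0 of 3 tested called higher by edgeR or limma-voom, 3 at an unadjusted edgeR p of 0.05 and 3 called higher by DESeq2. In bulk tissue fewer cells of a type and less RNA per cell cannot be told apart.

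Ribosomal protein messages made up 1.06%, 1.02% and 0.982% of gene counts in chow replicates 1, 2 and 3, and 0.987%, 1.65% and 1.08% in HFHS replicates 1, 2 and 3. The mean share was 1.02% ± 0.0408 in chow and 1.24% ± 0.359 in HFHS (SD, n = 3). HFHS replicate 2 stood above all other libraries, and the other HFHS libraries lay close to or within the chow range, so the groups overlapped. The difference of the means, 0.217 percentage points, was smaller than the SD of the HFHS group. The 10 most abundant genes other than ribosomal protein genes took 12.9% of gene counts in HFHS replicate 2 and 15.2% to 18.5% in the other libraries. With those 10 genes left out of the total, the share of HFHS replicate 2 was 1.89% and that of the other libraries 1.18% to 1.30%.

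No ribosomal protein gene passed the test between the diets. By edgeR's quasi-likelihood test with Benjamini-Hochberg adjustment over all tested genes, 0 were higher and 0 lower in HFHS at an adjusted p of 0.05. The background was 14.6% of all 12949 tested genes (11.0% higher, 3.61% lower). The smallest adjusted p among the ribosomal protein genes was 0.0622. At an unadjusted p of 0.05, 3 of the 78 passed, or 3.85%, against 32.3% of all tested genes. DESeq2 called 0 higher and 2 lower (Rps4l and Rps27l), where its background was 7.53% lower and 21.5% in either direction, and limma-voom called 0 in each direction, where its background was 10.6% in either.

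The fitted differences were small. The median log2 fold change (HFHS over chow) of the 78 genes was -0.01, with 37 above 0 and 41 below, and the median over all tested genes was -0.02. The middle 50% of the genes lay between -0.13 and 0.09, whereas for all tested genes it lay between -0.24 and 0.36. Sizes under 0.25 in either direction were found for 70 of the 78 genes, and for 46.8% of all tested genes. The median size regardless of sign was 0.10 for the ribosomal protein genes and 0.28 for all tested genes. The 95% confidence interval stayed within a 2-fold change in either direction for 76 of the 78 genes and within a 1.5-fold change for 67. The median half-width of the interval was 0.35 on the log2 scale, so a smaller change lay inside the interval of a typical gene.

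**Figure D1:**
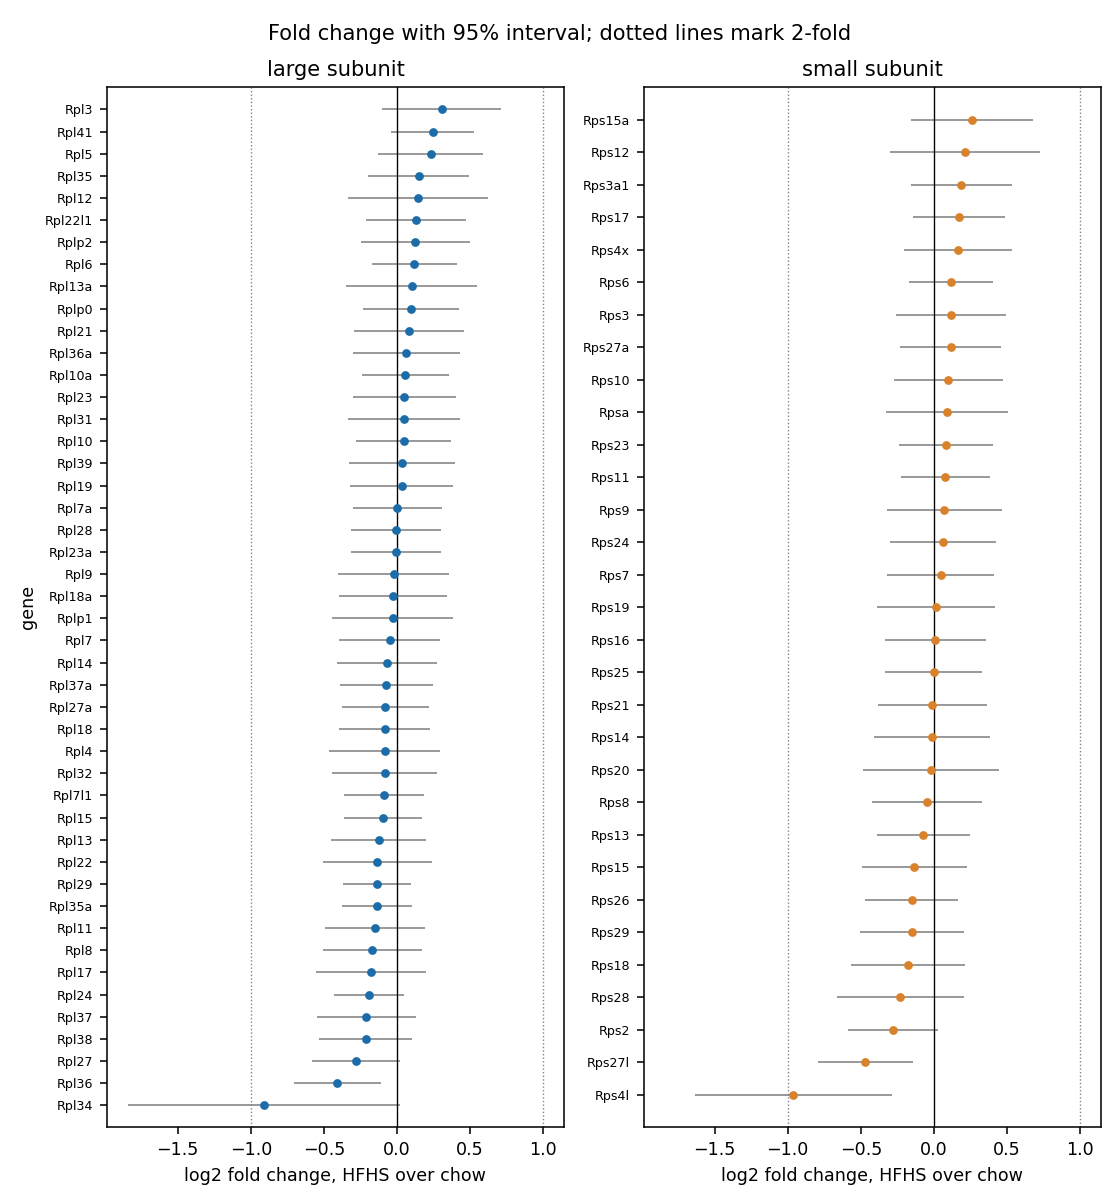
Log2 fold change (HFHS over chow) of 77 of the 78 tested ribosomal protein genes, large subunit on the left and small subunit on the right, ordered by value; bars are 95% confidence intervals from the edgeR fit and dotted lines mark 2-fold. Most genes lie near 0 with intervals inside the dotted lines, and Rpl34 and Rps4l have the intervals that pass 2-fold.

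The sign of the median followed the scaling of the libraries, so no direction is given for the group. Scaling by library size only moved the median of all tested genes to 0.25 and that of the ribosomal protein genes to 0.28, with 72 genes above 0 and 6 below. Upper-quartile scaling gave 0.07 for all tested genes, 0.08 for the ribosomal protein genes, and 55 above and 23 below. Across these scalings, TMM and RLE, the ribosomal protein median exceeded that of all tested genes by 0.01 to 0.03. None of these scalings called a member.

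The large and small subunits gave similar values, described here without a test between them. The median log2 fold change was -0.03 over 46 large subunit genes (19 above 0, 27 below) and 0.03 over 32 small subunit genes (18 above, 14 below). Counts of the large subunit divided by counts of the small subunit were 1.39, 1.40 and 1.40 in chow and 1.40, 1.35 and 1.39 in HFHS. The ratio averaged 1.40 ± 0.00804 in chow and 1.38 ± 0.0268 in HFHS (SD, n = 3). HFHS replicate 2 had the lowest ratio, HFHS replicate 1 matched the chow libraries, and the difference of the means, -0.0154, was within the HFHS spread. The median small subunit gene exceeded the median large subunit gene by a similar amount under library size scaling, with values of 0.32 and 0.26.

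The ribosomal protein median differed more among the HFHS libraries than between the diets. Set against the chow mean of each gene (log2 of CPM + 0.5), the median ribosomal protein gene stood at 0.09, -0.05 and -0.03 in chow replicates 1, 2 and 3. It stood at -0.22, 0.23 and -0.08 in HFHS replicates 1, 2 and 3. Over all tested genes the same medians lay between -0.02 and 0.01 in the 6 libraries. HFHS replicate 2 was above and HFHS replicate 1 below, with chow between them.

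HFHS replicate 2 was the highest of the 6 libraries for 56 of the 78 genes (71.8%, against 29.2% of all tested genes). HFHS replicate 1 was the lowest for 63 of them (80.8%, against 12.8% of all tested genes). HFHS replicate 2 exceeded every chow library in 56 genes, and HFHS replicate 1 lay below every chow library in 66. HFHS replicate 3 lay below every chow library in 39 genes, within the chow range in 30 and above every chow library in 9. For all tested genes, replicate 2 exceeded every chow library in 37.5% and replicate 1 lay below every one in 34.7%, and the share for replicate 3 was not taken. The high position of replicate 2 was found under each scaling: its median was 0.24 with RLE, 0.35 with upper-quartile scaling and 0.70 with library size only, when it was highest for 74 genes. The median over all tested genes in that library was 0.00 or -0.02 with RLE and TMM, 0.10 with upper-quartile scaling and 0.43 with library size only. Against chow, the low position of replicate 1 depended on the scaling. With library size only its median was -0.06 and it was lowest for 37 genes, while chow replicate 3 was lowest for 28. The replicate 1 median over all tested genes was 0.00 with TMM, -0.01 with RLE, 0.06 with upper-quartile scaling and 0.15 with library size only. Its ribosomal protein median lay below that under each scaling, at -0.22, -0.23, -0.16 and -0.06 in the same order.

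**Figure D2:**
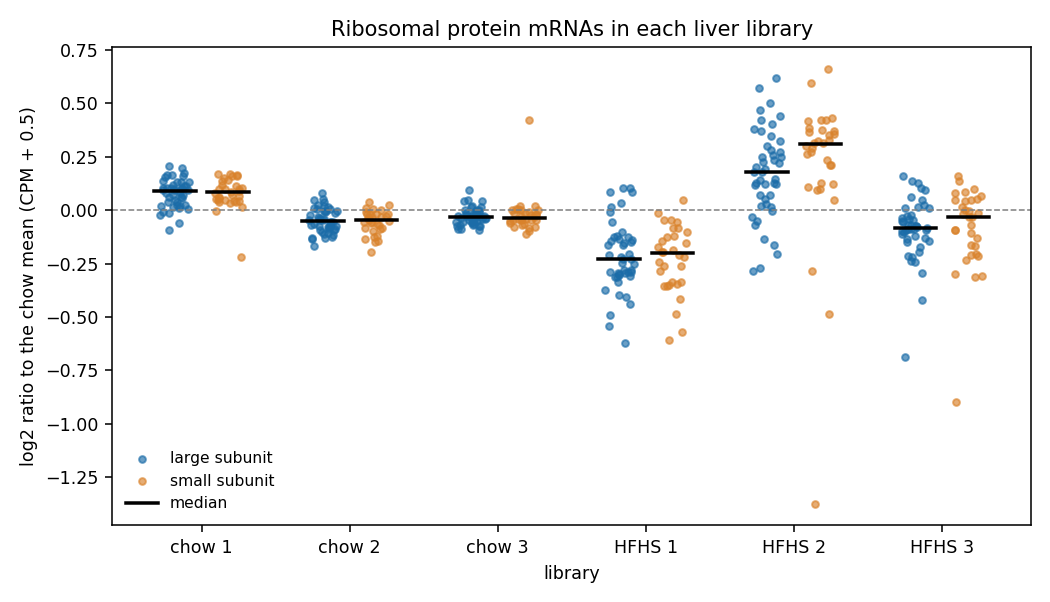
Log2 ratio to the chow mean (CPM + 0.5, TMM-scaled) of every tested ribosomal protein gene in each library, with large subunit genes in blue, small subunit genes in orange and black lines at the medians. HFHS replicate 2 has medians of 0.18 (large) and 0.31 (small), HFHS replicate 1 of -0.23 and -0.20, and the chow libraries lie within 0.09 of 0.

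In HFHS replicate 2 the median gene had 1.29 times the mean CPM of HFHS replicates 1 and 3, where the median over all tested genes was 1.00. The ratio was 1.67 for Rps12, 1.63 for Rpl12, 1.58 for Rps20 and 1.51 for Rpl13a. It was 0.590 for Rps4l, 0.817 for Rpl7l1, 0.976 for Rps27l and 0.996 for Rps2, the genes with a ratio under 1. These examples were chosen after their values were seen. The paralogue Rpl22l1 had a ratio of 1.32. Set against the chow mean instead, 66 of the 78 genes lay above it in HFHS replicate 2, against 48.7% of all tested genes. In HFHS replicates 1 and 3, 7 and 22 of the 78 lay above it, against 50.2% and 49.0% of all tested genes. Replicate 2 also had the highest macrophage, stellate and bile duct marker sums and the lowest hepatocyte sum given above. The part of cell makeup in its ribosomal protein level was not tested.

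The median depended on the HFHS library left out. Without HFHS replicate 2 it was -0.13 (12 genes above 0, 66 below), beside a median over all tested genes of -0.01. Without HFHS replicate 1 it was 0.10 (53 above, 25 below), beside -0.03. Without HFHS replicate 3 it was 0.01. At most 1 gene was called when a library was left out: Rps4l lower without HFHS replicate 1, Rpl36 lower without HFHS replicate 2 and Rps27l lower without HFHS replicate 3. Over all genes the same fits called 1184 higher and 293 lower, 1226 and 391, and 1664 and 772. No member was called when a chow library was left out, where the calls over all genes came to 762 and 177 without replicate 1 and 345 and 113 without replicate 2. Without chow replicate 3 they came to 4 and 2, so the absence of called members there says nothing about these genes.

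The groups did not overlap for 10 of the 78 genes, against a background of 39.5% of all tested genes. In 2 of them, Rpl3 and Rpl41, all HFHS libraries lay above all chow libraries (background 21.5%). In 8 they lay below: Rpl24, Rpl27, Rpl34, Rpl35a, Rpl36, Rps2, Rps27l and Rps4l (background 18.0%). These counts also moved with the scaling, to 11 above and 1 below with library size only and to 4 above and 5 below with upper-quartile scaling. The shares of all tested genes under those scalings were not taken, so these counts cannot be set against a background. The median log2 fold change of all tested genes moved as well, to 0.25 and 0.07.

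Rpl3, near the peptidyl transferase centre, had the highest log2 fold change of the 78 genes (chr15:80077791-80091868, GRCm38). Its levels were 176, 162 and 186 CPM in chow and 188, 268 and 192 CPM in HFHS. Its log2 fold change was 0.30 ± 0.17 (SE; edgeR adjusted p = 0.270). HFHS replicate 2 carried much of that, as the value was 0.13 without it. Rps15a, a small subunit protein, followed with 95.7, 82.5 and 79.2 CPM in chow and 82.9, 129 and 95.7 CPM in HFHS, where replicate 2 alone lay above the chow range. Its log2 fold change was 0.26 ± 0.18 (adjusted p = 0.358), and 0.07 without that library. Rpl41, the smallest ribosomal protein, had 74.9, 73.2 and 71.0 CPM in chow and 78.4, 99.2 and 81.6 CPM in HFHS. Its groups did not overlap, but the log2 fold change of 0.24 ± 0.12 did not pass (adjusted p = 0.212).

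At the other end, Rps4l had 9.84, 10 and 15.6 CPM in chow and 8.10, 4.15 and 5.97 CPM in HFHS. GENCODE M21 lists it as a transcribed processed pseudogene, a kind of intronless copy, and not as a protein-coding gene. All HFHS libraries lay below all chow libraries, and the highest chow value came from replicate 3. The log2 fold change was -0.96 ± 0.29 (SE; edgeR adjusted p = 0.0638), with a 95% interval from -1.64 to -0.29. DESeq2 gave -0.97 with an adjusted p of 0.0162, and across all alternatives the adjusted p ranged from 0.0162 to 0.198. Rps4l held 107 to 232 counts per library, against 2975 to 7180 for Rps4x.

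Rps27l, a paralogue of Rps27 known as a target of p53 (chr9:66946086-66949516, GRCm38), had 219, 180 and 194 CPM in chow and 129, 140 and 158 CPM in HFHS. The groups did not overlap, and HFHS replicate 2 was not raised for this gene. The log2 fold change was -0.47 ± 0.14 (edgeR adjusted p = 0.0622), with a 95% interval from -0.80 to -0.14. DESeq2 gave -0.47 with an adjusted p of 0.0111, and the adjusted p ranged from 0.0111 to 0.382 over the alternatives. The size depended on the scaling, at -0.20 with library size only. Of the 50-base stretches of its coding sequence, 48.3% occur in other genes, and the row of Rps27 held almost no counts. Rps27l thus made up 99.8% of the pair's counts in chow and 99.7% in HFHS, which cannot be read as a switch between the 2 forms.

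Rpl36, a large subunit protein named here after its values were seen, had 78.5, 83.1 and 84.5 CPM in chow and 53.1, 71.0 and 61.1 CPM in HFHS. All HFHS libraries lay below chow, with replicate 2 the closest. The log2 fold change was -0.41 ± 0.13 (edgeR adjusted p = 0.0705). It was -0.51 without HFHS replicate 2 (adjusted p = 0.0274) and -0.13 with library size only (adjusted p = 0.665), the ends of its range over the alternatives. Rpl34 had a fitted value of -0.91 ± 0.40 (adjusted p = 0.163), but from 17, 12 and 10 counts in chow and 7, 14 and 5 in HFHS. Its raw counts overlapped between the diets, so its value is limited by depth.

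**Figure D3:**
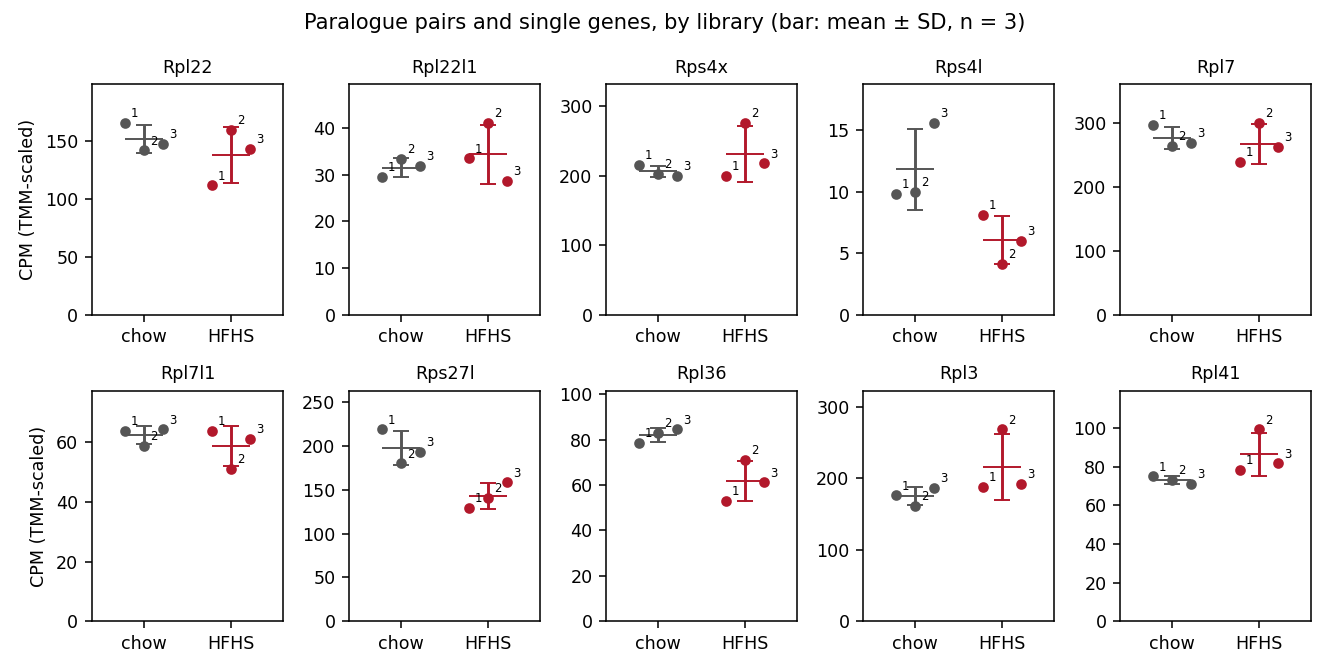
CPM (TMM-scaled) of paralogue pairs and single genes in each library, numbered by replicate, with the mean and SD of each diet (n = 3) and axes from 0. Rps4l, Rps27l and Rpl36 have all HFHS libraries below all chow libraries, Rpl3 and Rpl41 have them above, and Rpl22, Rpl22l1, Rpl7, Rpl7l1 and Rps4x overlap.

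Among paralogues, Rpl22l1 encodes a close relative of Rpl22. Rpl22l1 (chr3:28805436-28807424, GRCm38) had 29.5, 33.4 and 31.8 CPM in chow and 33.5, 41.2 and 28.6 CPM in HFHS. Its HFHS libraries lay on both sides of the chow range. The log2 fold change was 0.13 ± 0.15 (edgeR adjusted p = 0.590), with a 95% interval from -0.21 to 0.47. Rpl22 had 166, 142 and 148 CPM in chow and 112, 159 and 144 CPM in HFHS, for a log2 fold change of -0.14 ± 0.16 (adjusted p = 0.597). Rpl22l1 made up 15.1%, 19.0% and 17.7% of the pair's counts in chow and 23.1%, 20.5% and 16.6% in HFHS. The mean share was 17.3% ± 1.99 in chow and 20.1% ± 3.24 in HFHS (SD, n = 3), a difference within the HFHS spread. Of the 50-base stretches, 82.7% of those of Rpl22l1 and 31.0% of those of Rpl22 occur in other genes.

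Rpl7l1, a relative of Rpl7 with a role in ribosome assembly, had 63.9, 58.9 and 64.3 CPM in chow and 63.8, 51.0 and 61.2 CPM in HFHS. It made up 18.4% ± 0.801 of the pair's counts in chow and 18.1% ± 3.34 in HFHS, with the lowest share, 14.5%, in HFHS replicate 2. Rps4x, the parent of Rps4l, overlapped between the diets at 215, 203 and 200 CPM in chow and 200, 276 and 218 CPM in HFHS. Rps4l took a smaller share of the pair in each HFHS library than in any chow library: 4.37%, 4.69% and 7.23% in chow and 3.90%, 1.48% and 2.67% in HFHS. Of the 50-base stretches of Rps4x, 90.1% occur in other genes, and Rps4l had no coding sequence to compare. How reads fitting both were counted is not given, so the smaller share cannot be read as a switch between the forms. Rpl3l, the form of Rpl3 found in striated muscle, had 1 to 5 counts per library and at most 0.170% of its pair's counts. Its detection in liver is near the limit, as 3 counts correspond to 0.115 to 0.202 CPM.

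A suffix does not always mark a duplicate of the gene whose symbol lacks it. Rps27a encodes ubiquitin fused to a small subunit protein, and its log2 fold change was 0.11 ± 0.15. Rps3a1 stood at 0.19 ± 0.15, Rpl36a, whose measured relative Rpl36al is given below, at 0.06 ± 0.16, and Rpl10, the parent of Rpl10l, at 0.04 ± 0.14. Each of these had an edgeR adjusted p of 0.420 or more. The relatives Rpl10l and Rpl39l, known from testis, had 1 and 3 counts in all 6 libraries together and were under the count minimum.

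The stalk of the large subunit recruits the elongation factors and is built on Rplp0 with copies of Rplp1 and Rplp2. Rplp0 had 280, 285 and 263 CPM in chow and 265, 322 and 297 CPM in HFHS, with a log2 fold change of 0.09 ± 0.14. Rplp1 stood at -0.03 ± 0.18 and Rplp2 at 0.12 ± 0.16, and none of the 3 had an edgeR adjusted p below 0.632. Rpl5 and Rpl11, which carry the 5S RNA into the large subunit and can bind the p53 regulator Mdm2, did not pass either. Rpl5 had 152, 141 and 142 CPM in chow and 146, 205 and 158 CPM in HFHS (log2 fold change 0.23 ± 0.16, adjusted p = 0.349). Rpl11 had 211, 187 and 187 CPM in chow and 150, 198 and 179 CPM in HFHS (-0.15 ± 0.15, adjusted p = 0.514). The values of these partners lay on opposite sides of 0, and both overlapped between the diets.

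Rpsa, a small subunit protein also known as a laminin receptor, had 222, 223 and 223 CPM in chow and 204, 299 and 206 CPM in HFHS. Its chow libraries differed by under 2 CPM, while HFHS replicate 2 lay above them and replicates 1 and 3 below. The log2 fold change was 0.09 ± 0.18 (adjusted p = 0.775). Rps6, the substrate of the S6 kinases, had 108, 105 and 102 CPM in chow and 101, 128 and 112 CPM in HFHS, a log2 fold change of 0.12 ± 0.12 (adjusted p = 0.546).

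Levels of different genes were compared per kilobase of coding sequence. The median over 77 tested genes was 300.2 CPM per kilobase, the middle 50% lay between 183 and 369, and 60 of the 77 lay within 2-fold of the median. The highest large subunit values were those of Rpl41 (1063 CPM per kilobase), Rplp1 (897) and Rpl39 (674), and the highest small subunit values those of Rps27l (675), Rps29 (647) and Rps21 (539). All of these have short coding sequences (75 bases for Rpl41, 342 for Rplp1, 153 for Rpl39, 252 for Rps27l, 168 for Rps29 and 249 for Rps21), so untranslated parts weigh more in their values. The lowest, beside Rpl34, were Rpl10a (79.5), Rpl29 (80.5), Rpl7l1 (82.0) and Rpl22l1 (90.2). The order of the genes was nearly the same in all libraries: Spearman's rho with the chow mean was 0.971, 0.958 and 0.978 in HFHS replicates 1, 2 and 3 over 77 genes, as a description.

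Rps29, a zinc-binding protein at the head of the small subunit, was not apart between the diets, at 128, 103 and 112 CPM in chow and 90.0, 122 and 96.9 CPM in HFHS. Its log2 fold change was -0.15 ± 0.15 (adjusted p = 0.533). Rps21 and Rpl39 stood at -0.01 ± 0.16 and 0.03 ± 0.16.

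Several core genes had almost no counts. Rpl26 had 0 counts in every library and Rpl30 6 counts over all 6 libraries, while Rps27 had 6 to 14 and Rpl34 5 to 17 per library. All encode core ribosomal proteins, so these rows cannot be read as levels of the messages. Ribosomal protein genes have many processed pseudogenes. Of all stretches of 50 coding bases, a median of 91.6% per gene occurred also in another GENCODE M21 gene. That share was 100% for Rps27, 87.3% for Rpl26, 83.1% for Rpl30 and 72.2% for Rpl34. It was also 100% for Rpl10, which had 2911 to 6136 counts per library, so the shared share alone did not separate the nearly uncounted genes. How reads fitting several places were counted is not given in the sources used here.

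For 5 tested genes under 25% of the stretches were shared, which makes their counts the least open to such splitting. They included Rps3 (8.09%), Rpl8 (8.73%), Rpl4 (20.3%) and Rpl7l1 (21.9%). Rps3, at the entry of the messenger RNA channel, had 296, 268 and 262 CPM in chow and 260, 351 and 286 CPM in HFHS. Rpl8, at the peptidyl transferase centre, had 275, 263 and 262 CPM in chow and 211, 270 and 230 CPM in HFHS. The median log2 fold change of the 5 was -0.08, and of the 72 with a larger share -0.01. In HFHS replicate 2 the 5 had a median log2 ratio to chow of 0.12 and the others of 0.23. In 5 genes over 10% of exon bases overlapped another gene of the tables: Rpl35 (68.3%), Rpl23a (55.4%), Rpl5 (46.6%), Rpl28 (16.5%) and Rpl32 (10.3%).

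Genes with and without a TOP scored at the annotated start, such as Rps6 and Rpl22l1 shown above, had similar values. A start placed a few bases away gives no match, so this split cannot compare messages that have the element with messages that lack it. The median log2 fold change was -0.01 over the 12 tested genes with a TOP and 0.01 over the 47 without. In HFHS replicate 2 the medians were 0.24 and 0.23, and in HFHS replicate 1 -0.23 and -0.21. The 79 genes with a place in the annotation were spread over 19 chromosomes, with the most, 14, on chromosome 7.

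Coding length moved with the values to a small degree. Spearman's rho between coding length and log2 fold change was 0.24 over 77 ribosomal protein genes and 0.10 over 12385 other tested genes, and rho with the GC content of the coding sequence was -0.27 and 0.03, all as descriptions of genes measured in the same libraries. Genes with under 400 coding bases had a median of -0.02 (25 genes), those with 400 to under 600 bases -0.01 (29 genes) and those with 600 or more 0.06 (23 genes). Other tested genes in the same classes had medians of -0.15, -0.06 and -0.01. Single chow libraries differed in this too, with rho between length and the ratio to the chow mean at -0.46 in chow replicate 1 and 0.42 in chow replicate 2. The part of length in the differences between the diets was not tested.

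**Figure D4:**
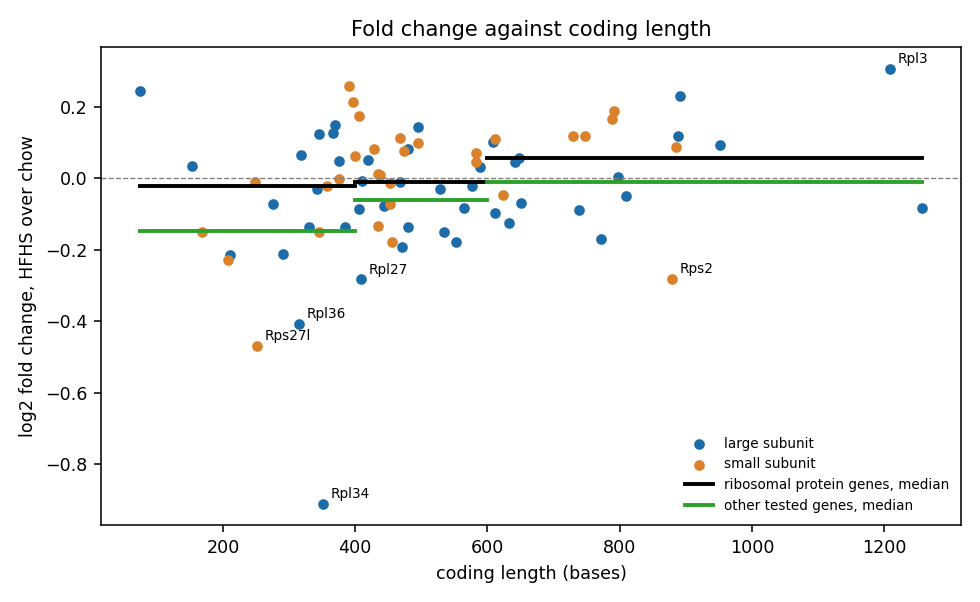
Log2 fold change (HFHS over chow) against coding length in bases for 77 tested ribosomal protein genes, with black lines at their medians and green lines at the medians of other tested genes in the classes under 400, 400 to under 600 and 600 or more bases. The medians of the ribosomal protein genes run from -0.02 through -0.01 to 0.06 and those of other genes from -0.15 through -0.06 to -0.01.

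Of genes for ribosomal proteins or ribosome-bound proteins whose symbols fall outside the naming rule, Fau, Rpl36al and Rack1 were not called by edgeR. Fau, which encodes a ubiquitin-like protein fused to a small subunit protein, stood at -0.12 ± 0.13 (log2 fold change; adjusted p = 0.564), Rpl36al at -0.16 ± 0.13 (0.413) and Rack1 at 0.09 ± 0.17 (0.743). Rpl36al made up 41.0% ± 2.24 of the counts of Rpl36a and Rpl36al in chow and 37.5% ± 6.91 in HFHS.

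Other genes of translation gave few calls. Of 35 tested initiation factors, 0 were called in either direction by edgeR, with 5 at an unadjusted p of 0.05 and a median log2 fold change of -0.05. DESeq2 called 2 lower, Eif5 and Eif4b, and limma-voom called 0. The smallest p belonged to Eif5, which triggers GTP hydrolysis at the start codon (-0.50 ± 0.15, adjusted p = 0.0580). Eif4b, a helper of the Eif4a helicase, stood at -0.50 ± 0.17 (adjusted p = 0.0855), and Eif1ax at -0.26 ± 0.09 (adjusted p = 0.105). Of 10 elongation and termination factors, 0 were called by edgeR, with 1 at an unadjusted p of 0.05 and a median of -0.08, while DESeq2 called 1 lower (Eef2) and limma-voom 0. Eef2, which moves the ribosome along the message, stood at -0.28 ± 0.17, Eef1g at 0.27 ± 0.11 and Gspt1 at -0.21 ± 0.13.

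Genes for ribosome assembly and RNA polymerase I gave 0 calls among 46 tested by edgeR, DESeq2 or limma-voom, with 3 at an unadjusted edgeR p of 0.05 and a median of 0.01. Nob1, the nuclease that finishes the small subunit RNA, stood at 0.40 ± 0.16, Nop56 at 0.38 ± 0.16 and Nop16 at -0.34 ± 0.14. The mTORC1 and TOP control list gave 0 calls among 18 by these tools, with 4 at an unadjusted edgeR p of 0.05 and a median of -0.22. Rps6kb1, an S6 kinase, stood at -0.31 ± 0.10 (adjusted p = 0.0712), Rptor at -0.40 ± 0.16 and Deptor at -0.39 ± 0.17. Among 9 host transcripts of small nucleolar RNAs, 0 were higher and 1 lower by each of the 3 tools. That was Snhg8, with 23.7, 22.5 and 23.1 CPM in chow and 13.5, 15 and 14.9 CPM in HFHS (-0.67 ± 0.10, adjusted p = 0.0118). Its adjusted p ranged from 9.87e-05 to 0.121 over the alternatives, and the call was lost with library size only (0.121) and on leaving out chow replicate 3 (0.0619). Zfas1 and Snhg6 stood at -0.65 ± 0.27 and -0.42 ± 0.19.

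Mitochondrial ribosomal proteins build the other ribosome of the cell. Of 77 tested, 0 were higher and 2 lower by edgeR (2.60%, against a background of 3.61%). DESeq2 called 6 lower, where its background was 7.53% lower, and limma-voom called 1 lower. With TMM scaling, 70 lay below 0 and 7 above, beside 6775 and 6174 of all tested genes. At an unadjusted edgeR p of 0.05, 17 of the 77 passed, against 32.3% of all tested genes. The 2 called by edgeR were Mrpl14 (-0.61 ± 0.10, adjusted p = 0.0145) and Mrpl51 (-0.43 ± 0.11, adjusted p = 0.0423). Mrps30 followed at -0.42 ± 0.12 (adjusted p = 0.0572). Over the alternatives the adjusted p ranged from 8.08e-05 to 0.102 for Mrpl14 and from 0.0166 to 0.351 for Mrpl51. Mrpl14 lost its call with library size only (0.102) and on leaving out chow replicate 3 (0.0751). Mrpl51 lost it with library size only (0.351), with upper-quartile scaling (0.0677), with limma-voom (0.0516), under the block (0.0824) and without any library except HFHS replicate 3 (0.0884 to 0.132). The median mitochondrial ribosomal protein gene stood at -0.23, -0.39 and -0.03 against chow in HFHS replicates 1, 2 and 3. HFHS replicate 2 was the lowest HFHS library for the mitochondrial median and the highest for the cytosolic median, a difference that was not tested.

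**Figure D5:**
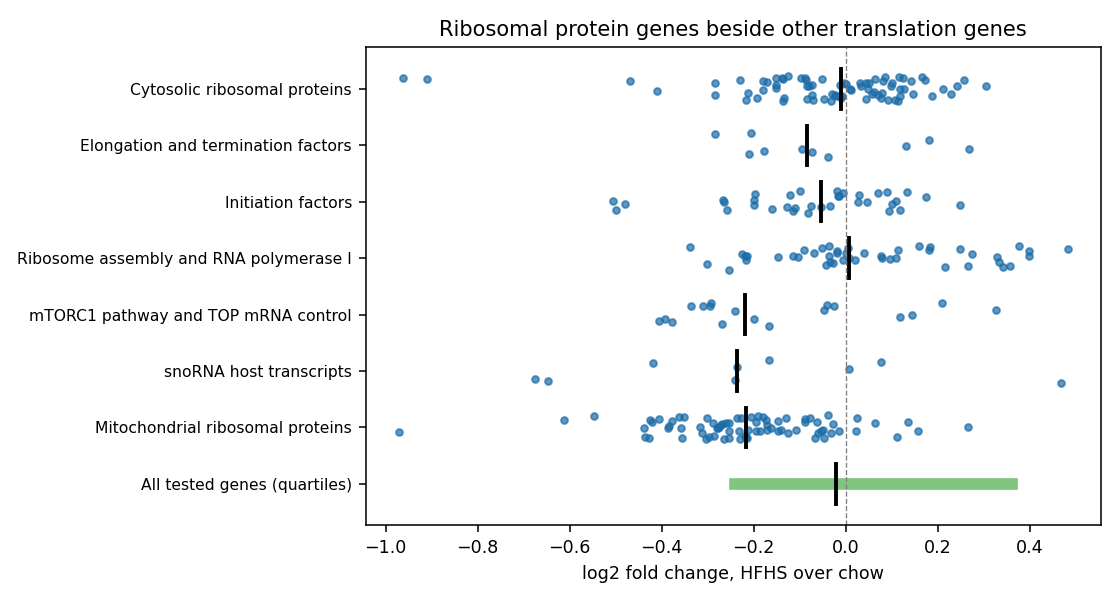
Log2 fold change (HFHS over chow) of each tested gene in lists of the translation machinery, with black lines at the medians and, in the lowest row, the middle 50% and median of all tested genes. With TMM scaling, cytosolic ribosomal proteins have a median of -0.01 and assembly genes of 0.01. Mitochondrial ribosomal proteins, mTORC1 genes and snoRNA hosts have medians of -0.22, -0.22 and -0.24.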

How the data were processed

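Polyadenylated liver RNA from 6 samples was analysed. The authors deposited whole-number counts of reads per gene, 1 table per sample. Per the labels, the library kit marks strand. Per the submitters' processing notes, STAR and mm10 were used. Not given in the sources used here are the counter, its strand setting and its handling of multi-mapping reads. Reads outside genes (7.74% to 10.6% of table counts) and ambiguous reads (0.615% to 0.862%) were left out.

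Genes were filtered with filterByExpr (minimum count 10), scaled by TMM and tested with edgeR's robust quasi-likelihood F test (edgeR 4.0.16, limma 3.58.1, R 4.3.3) without covariates, with Benjamini-Hochberg adjustment over 12949 genes at 0.05. The SE is the log2 fold change divided by the square root of F. Intervals are 95%. CPM values use TMM-scaled sizes. Coding lengths and shared 50-base stretches came from GENCODE M21 on GRCm38, the assembly of mm10. Alternatives were RLE, upper-quartile and library size scaling, TMM without the members, no filter, DESeq2 1.42.0, limma-voom, a replicate block, added pseudogene rows, a member minimum of 1000 counts and leaving out each library.

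Members and lists were chosen with earlier results of these data known. Named genes are the 3 highest and 3 lowest members by fold change, the 3 of each subunit with the highest level per length, paralogues with parents, stalk and 5S partner genes, Rpsa, and the 3 smallest p of each other list. Some of these are not reported here. Counts of every pair of replicates differed by far more than sampling noise (chi-square per gene 24.9 to 212). The floor of 3 counts covers counting error only. Fits were tested on simulated data.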

Additional observations from a re-analysis of the deposited data

How the results depend on the processing

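None of the alternatives called a ribosomal protein gene higher. DESeq2 called 2 lower, and leaving out 1 library called 0 to 1 lower. With library size only, the medians were 0.28 for all members, 0.26 for the large subunit and 0.32 for the small subunit, beside 0.25 for all tested genes. Leaving out 1 library gave medians of -0.13 to 0.10 for all members, -0.15 to 0.06 for the large subunit and -0.11 to 0.14 for the small subunit. Same-numbered samples did not deviate together (correlations -0.263, -0.164 and 0.0141). The labels state no pairing, and with 3 libraries a group these values cannot exclude one. The replicate block called 0 higher and 0 lower with a median of -0.02, and lowered the calls over all genes from 1428 higher and 468 lower to 961 and 282. Leaving out chow replicate 3 left 4 higher and 2 lower calls among all genes. Of 360 values for 24 named members, 330 kept their direction and call or moved within the replicate spread, 26 moved further and 4 became called. With 3 libraries a group, the median interval of a member could not exclude a log2 difference of about 0.35.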
